A study of Mus musculus with 12 samples.

Results

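The transcripts of enteric neurons, enteric glia and the pacemaker cells of the gut wall were followed through 8 genes: Ret, Elavl4, Uchl1, Nos1, Vip, Sox10, S100b and Kit. They were taken by gene symbol from a table of 53715 mouse genes, and their measured levels played no part in the choice, although earlier results of the same libraries were known. RNA of the mucosa of ileum and colon was taken from males at 8 weeks of age, with 3 libraries for each of 4 groups, to learn what the loss of Slc39a8 from the intestinal epithelium does to gene expression in the mucosa. Slc39a8 encodes a manganese transporter of the cell membrane. The labels give C57BL/6J as the strain of all 4 groups. Control mice are labelled Slc39a8-fl/fl, so the allele is flanked by loxP sites but intact, whereas Slc39a8-IEC KO mice are labelled Slc39a8-fl/fl:Villin-Cre. Per the study's methods, however, controls could be floxed, Villin-Cre or wild-type animals. The Villin promoter drives Cre in intestinal epithelial cells and is not a promoter of neurons, glia, muscle or pacemaker cells.

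The enteric nervous system lies in ganglia between the muscle layers and in the submucosa, and sends nerve fibres into the lamina propria of the mucosa. Its neurons and glia descend from neural crest cells that need the receptor tyrosine kinase Ret to settle the gut. Interstitial cells of Cajal, which are not neurons, set the rhythm of the muscle and depend on the receptor tyrosine kinase Kit. Nitric oxide and vasoactive intestinal peptide are the main transmitters that relax intestinal smooth muscle, and vasoactive intestinal peptide also drives fluid secretion by the epithelium.

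Total expected counts, the authors' estimates of reads per gene, ran from 16749129 to 27903075 in the 12 libraries after rounding. The targeted gene Slc39a8 was lower in every KO library than in every control library of its tissue. It was at 2.62 to 4.35 CPM (counts scaled to a library of 1000000) in ileal KO mice and at 5.22 to 8.39 CPM in ileal control mice, and in colon at 7.35 to 11.5 CPM and at 20.1 to 20.8 CPM. The ileal libraries of control replicate 3 and KO replicate 1 stood apart. The summed level of 9 smooth muscle genes was 45.5 and 29.2 CPM in them, 1956 to 2838 CPM in the other 4 ileal libraries and 2691 to 4195 CPM in the 6 colonic libraries. Smooth muscle transcripts were thus abundant in 10 libraries of what the labels call mucosa, and whether they came from the muscle coat, the muscle layer of the mucosa or vessels was not tested. The pair is called the low-muscle libraries here and is always shown apart. Because it was set apart by measured levels, no test was run on that division.

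All 8 genes passed edgeR's filter on low counts, with 16558 genes in all. Coordinates are those of GRCm38 in the GENCODE M21 annotation. Ret (ENSMUSG00000030110.13) is on chromosome 6, minus strand, from 118151745 to 118197718. Elavl4 (ENSMUSG00000028546.17) is on chromosome 4, minus strand, from 110203722 to 110351909. Chromosome 5 holds, all on the plus strand, Uchl1 (ENSMUSG00000029223.12) from 66676091 to 66687234, Kit (ENSMUSG00000005672.12) from 75574916 to 75656722 and Nos1 (ENSMUSG00000029361.18) from 117781032 to 117958840. Chromosome 10 holds Vip (ENSMUSG00000019772.5) from 5639218 to 5647617 and S100b (ENSMUSG00000033208.7) from 76253853 to 76261159, also on the plus strand. Sox10 (ENSMUSG00000033006.10) is on chromosome 15, minus strand, from 79154908 to 79165240. Exons of Uchl1 share 295 bases with the antisense gene Uchl1os and exons of Nos1 share 268 bases with the antisense gene Gm26995. Uchl1os had 0 counts in every library and Gm26995 at most 1, but the use of strand in counting was not given in the sources used here. For the other 6 genes the exons overlap no other annotated gene.

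The promoters of Vip and Kit are shown because these genes lay furthest apart in the low-muscle libraries. The sequences are from RefSeq (GRCm38.p6), plus strand, 250 bases before to 50 bases after an annotated start. The Vip window is chr10:5638968-5639267 and the Kit window chr5:75574737-75575036. Capitals mark TATAAA (the TATA box) and TGACG (the first letters of the cAMP response element) in Vip, and GGGCGG (the GC box) in Kit, each searched on both strands.
Vip: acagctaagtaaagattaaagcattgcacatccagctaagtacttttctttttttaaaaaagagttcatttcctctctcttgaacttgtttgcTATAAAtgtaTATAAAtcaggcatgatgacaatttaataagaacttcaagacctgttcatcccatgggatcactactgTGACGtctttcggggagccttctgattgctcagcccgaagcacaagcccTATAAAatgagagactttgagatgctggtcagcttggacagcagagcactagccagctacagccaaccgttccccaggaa
Kit: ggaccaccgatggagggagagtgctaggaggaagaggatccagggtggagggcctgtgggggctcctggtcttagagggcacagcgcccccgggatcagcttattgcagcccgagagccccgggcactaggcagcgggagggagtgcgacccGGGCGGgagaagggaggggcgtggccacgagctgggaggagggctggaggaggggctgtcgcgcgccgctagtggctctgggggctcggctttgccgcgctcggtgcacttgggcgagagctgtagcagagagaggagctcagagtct
The Vip window held TATAAA 3 times and TGACG 1 time, with no overlap between them, and no GGGCGG. The Kit window held GGGCGG 1 time and neither of the other motifs. Among 32851 promoters of this length, 13.6% held TATAAA, 20.8% TGACG and 35.7% GGGCGG. The dinucleotide CG occurred 4 times in the Vip window and 20 times in the Kit window, against a median of 7 over all promoters. These are matches of letters and not evidence of a factor bound there. RefSeq promoters were found for 6 of the 8 genes, with Ret and Sox10 the exceptions.

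**Figure D1:**
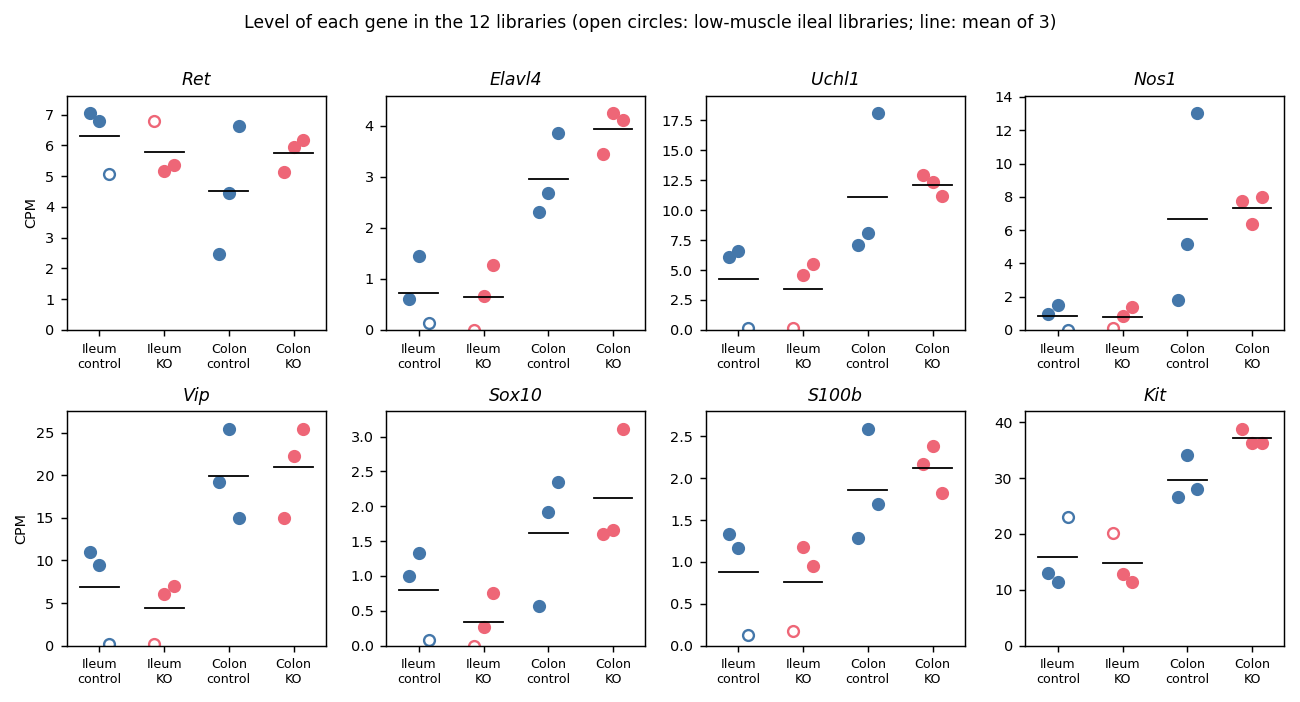
Each panel plots 1 gene, with CPM on a linear axis from 0, the 4 groups side by side, 1 point for each library and a line at the mean of 3. Open circles are the low-muscle ileal libraries, which sit near 0 for Elavl4, Uchl1, Nos1, Vip, Sox10 and S100b, at or close to the range of the other ileal libraries for Ret (5.06 and 6.80 CPM, against 5.16 to 7.05 CPM) and above them for Kit (23.0 and 20.1 CPM).

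Genes of the neuronal cell body were almost absent from the low-muscle ileal libraries. Uchl1, a deubiquitinating enzyme abundant in all enteric neurons, was at 6.12, 6.55 and 0.127 CPM in ileal control replicates 1 to 3 and at 0.179, 4.61 and 5.50 CPM in ileal KO replicates 1 to 3. Elavl4, the neuronal RNA-binding protein HuD, was at 0.599, 1.44 and 0.127 CPM in the control and at 0, 0.664 and 1.28 CPM in the KO libraries. For each gene the low-muscle library was the lowest of its group, and the 4 others did not overlap with the pair. Pooled over the low-muscle libraries, Uchl1 reached 2.61% of the mean of the other 4 ileal libraries (6 counts, 95% Poisson interval 0.959 to 5.69%) and Elavl4 7.47% (3 counts, 1.54 to 21.8%). These intervals cover counting error only, as do those below.

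The transmitter genes showed the same division. Nos1, the neuronal synthase of nitric oxide, was at 0.932, 1.5 and 0 CPM in the ileal control and at 0.119, 0.821 and 1.37 CPM in the ileal KO libraries. Vip was at 11.0, 9.44 and 0.170 CPM and at 0.238, 6.06 and 7.01 CPM in the same order. Vip had only 4 counts in each low-muscle library, where the other ileal libraries had 148 to 170. As a share of the mean of the other 4, Vip was at 2.37% (8 counts, 1.02 to 4.67%) and Nos1 at 4.29% (2 counts, 0.520 to 15.5%).

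Both glial genes were low in the pair as well. Sox10, a transcription factor of neural crest cells that glia retain, was at 0.998, 1.33 and 0.0850 CPM in the ileal control and at 0, 0.274 and 0.758 CPM in the ileal KO libraries. S100b, a calcium-binding protein of glia, was at 1.33, 1.17 and 0.127 CPM and at 0.179, 1.17 and 0.947 CPM. Neither gene's low-muscle values overlapped with those of the other 4 libraries, although Sox10 spanned a wide range among those 4. The pooled share was 5.90% for Sox10 (2 counts, 0.715 to 21.3%) and 12.9% for S100b (6 counts, 4.73 to 28.1%).

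Ret and Kit departed from this pattern. Ret was at 7.05, 6.78 and 5.06 CPM in the ileal control and at 6.80, 5.16 and 5.35 CPM in the ileal KO libraries. The low-muscle library was the lowest of the control group but the highest of the KO group, and the pooled level was 95% of the mean of the other 4 (233 counts, 83.2 to 108%). Kit was at 13.0, 11.4 and 23.0 CPM and at 20.1, 12.9 and 11.4 CPM, so that the low-muscle libraries were the highest in each group. Pooled, Kit stood at 179% of the mean of the other 4 (879 counts, 167 to 191%). In bulk RNA, fewer cells of a type and less RNA per cell cannot be told apart, here and in every comparison below.

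Counted over the 8 genes, 6 were below each of the other 4 ileal libraries in both low-muscle libraries, where 27.2% of all genes tested were. 1 gene, Kit, was above each of them, where 23.2% of all genes were. The pooled level was under 10% of the mean of the other 4 for 5 of the 8 genes, against 4.57% of all genes, whose median share was 97.1%.

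**Figure D2:**
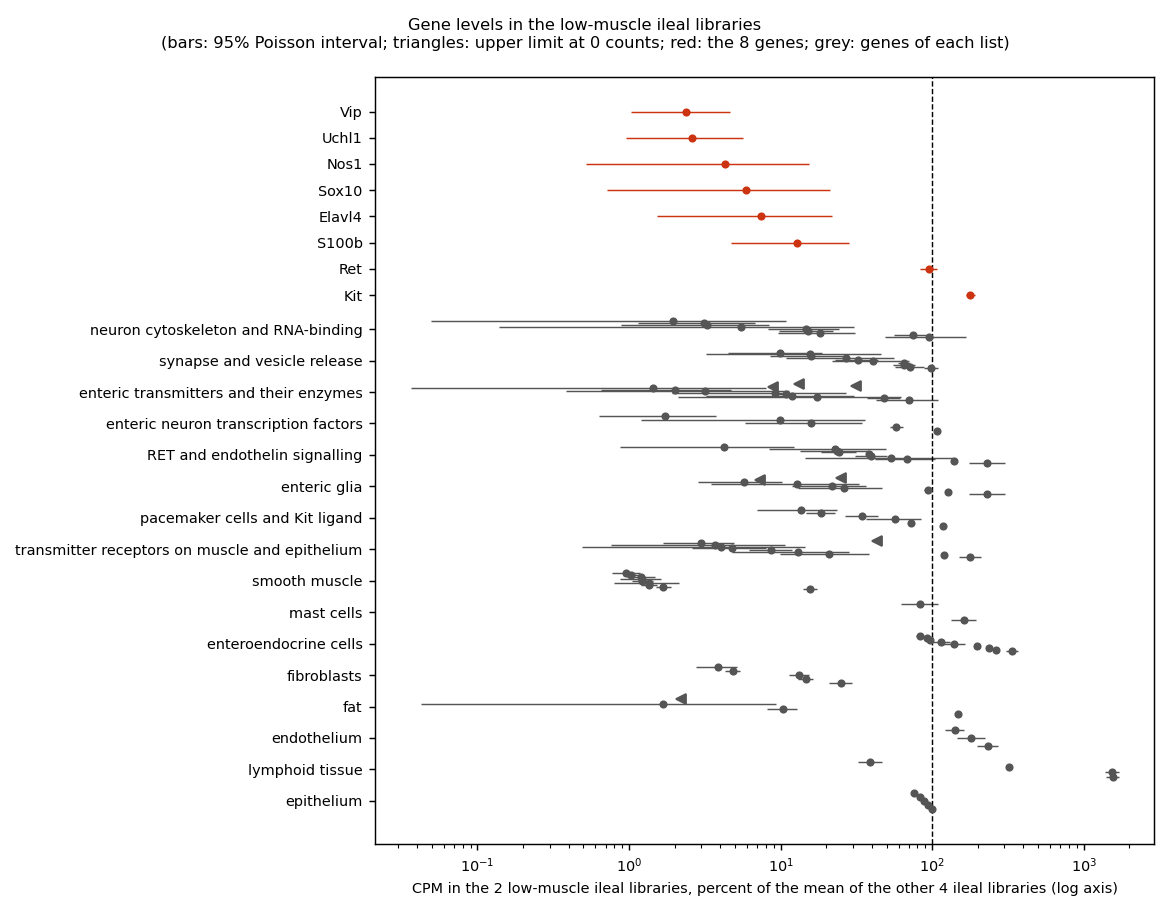
The horizontal axis (log scale) gives the pooled CPM of the 2 low-muscle ileal libraries as a percent of the mean of the other 4, with a 95% Poisson interval for each gene and a triangle at the upper limit where the pair had 0 counts. Red points are the 8 genes, from Vip at 2.37% to Kit at 179%, and grey points are the genes of 16 lists, where the smooth muscle genes sit furthest to the left as a group (median 1.22%) and those of lymphoid tissue furthest to the right (median 929%).

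Other neuronal genes gave a graded picture. Of 12 transmitter and transmitter-enzyme genes tested, 11 were below each of the other 4 libraries in the low-muscle pair, with a median share of 6.21%. Of all genes tested, 27.2% were below in this way, the share to set beside each count in this paragraph. Gal, which encodes the neuropeptide galanin, was at 2.01%, Cartpt at 1.43% and Penk, the precursor of enkephalins, at 3.17%. Tac1, the precursor of substance P, was at 10.8% of a mean that ileal control replicate 2 raised. That library had 152 CPM of Tac1, where the rest of the 4 had 18.1 to 33.5 CPM. Among 9 genes of the neuronal cytoskeleton and of RNA binding, 7 were below the other 4 libraries and the median was 14.7%. Gap43, a protein of growing axons, was at 1.96% and Stmn2 at 3.12%, but Nefm was at 95.1% (49.1 to 166%). Of 10 genes of synapses and vesicle release, 8 were below and the median was 36.6%. Here Sv2a, a synaptic vesicle protein, was at 9.89%, while Scg2 was at 65.1%.

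The 5 neuronal transcription factors tested divided in the same way. Hand2, which enteric neurons and gut mesenchyme share, was at 1.73% and Phox2a, a transcription factor of autonomic neurons, at 9.96%, but Tbx3 was at 108%. Of the genes that act with Ret, the co-receptor Gfra1 was at 23.6%, the ligand Gdnf at 22.7% and the ligand Nrtn at 39.8%. Gfra4 was lower, at 4.22% (3 counts, 0.870 to 12.3%), and Gfra3 was higher than in the other 4 libraries, at 232% (174 to 303%). The endothelin receptor Ednrb, required by the same neural crest cells, was at 24.4%, and its ligand Edn3 at 38.5%. Among these receptors, only Ret and Gfra2 (67.8%, 42.0 to 104%) had a pooled interval that included 100%.

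Among 9 genes of the glial list, 6 were below the other 4 libraries, where 27.2% of all genes were. Scn7a was at 5.72%, and Cdh19 had 0 counts in the pair, which allows up to 7.33%. Erbb3, at 127%, and Entpd2, at 94.2%, were at 496 and 26.9 CPM in the pair, levels far above any of the other glial genes. Of the pacemaker list, Ano1, the calcium-activated chloride channel that defines interstitial cells of Cajal, was at 2.12 and 2.21 CPM in the low-muscle libraries, against 8.76 to 17.8 CPM elsewhere in ileum. Its share was 18.4% (14.7 to 22.7%), where that of Kit was 179%. Etv1, a transcription factor of the same cells, was at 34.4%, and Kitl, the ligand of Kit, at 73.1%. In the same list Thbs4 was at 13.6% and Hcn4 at 57.0%. Elovl6 was at 119%, and its 103 CPM in the pair was the highest level of the list. The list of transmitter receptors on muscle and epithelium holds 10 genes, among them the protein kinase Prkg1, which is not a receptor. Of these 10, 8 were below the other 4 libraries, where 27.2% of all genes were, and the median was 6.73%. Chrm2, the muscarinic receptor of smooth muscle, was at 3.0% and Vipr2 at 13.0%, but Vipr1, the epithelial receptor of vasoactive intestinal peptide, was at 119%. The ratio of Kit to Ano1 per kilobase of exon was 7.60 and 6.38 in the low-muscle libraries and 0.514 to 0.913 in the other ileal libraries.

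Genes of other cells moved with this division, and their part in the levels of Ret and Kit was not tested. Mast cells express Kit too. Of 7 mast cell genes, 2 passed the filter, Mcpt1 at 162% and Mcpt2 at 83.3%. Of those that did not, Tpsb2 was at 216% (15 counts, 121 to 357%), Ms4a2 at 103%, Fcer1a at 98.2% and Cpa3 at 51.9%. Mcpt4 had 0 counts in the pair. Cpa3 and Ms4a2 reached at most 0.399 and 0.358 CPM in any library. The summed level of the 7 was 2.38 and 7.87 CPM in the low-muscle libraries, 3.06 to 4.73 CPM in the other 4 and 0.207 to 0.747 CPM in colon, where Kit was highest. Of 9 enteroendocrine genes, 4 were above each of the other 4 libraries, where 23.2% of all genes were. Chga was at 238% and Tph1, which makes serotonin, at 337%. Others of these 9 were not raised: Pyy, at 82.9%, was below each of the other 4 libraries, Sct was at 93.1% and Nts at 96.7%. Of the lymphoid genes, Ms4a1 of B cells was at 9.60 and 11.9 CPM in the pair, against 0.611 to 0.758 CPM elsewhere in ileum. In the same list Cd3e of T cells was lower in the pair, at 39.0%, and below each of the other 4 libraries. Of the genes of fibroblasts 5 of 5 were below the other 4 libraries (median 13.3%), and of those of fat 3 of 4 (median 6.00%), while 0 of 3 endothelial genes were (median 182%), and genes of the epithelium had a median of 88.2%. Of all genes tested, 27.2% were below the other 4 libraries.

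Between the tissues, 5 of the 8 genes were higher in every colonic than in every ileal library: Elavl4, Uchl1, Nos1, Vip and Kit. Of all genes tested, 13.4% showed this order. Nos1 was at 1.79, 5.18 and 13.0 CPM in the colonic control libraries and at 7.73, 6.37 and 7.97 CPM in the colonic KO libraries, where the highest ileal value was 1.5 CPM. Every colonic library was above it, but control replicate 1 only just. In edgeR's quasi-likelihood test with Benjamini-Hochberg adjustment, the log2 fold change of colon over ileum was 3.08 in control mice (SE 1.02, adjusted p = 0.0429) and 3.21 in KO mice (SE 1.01, adjusted p = 0.0343). Without colon control replicate 3, the value in control mice was 2.12 and no longer passed the threshold of 0.1 (adjusted p = 0.185). With the replicate number as a block in edgeR, the value in control mice was 2.75 and did not pass either (adjusted p = 0.113).

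Elavl4 was at 2.30, 2.69 and 3.86 CPM in the colonic control and at 3.44, 4.25 and 4.11 CPM in the colonic KO libraries. These 6 values lay above all ileal values, the highest of which was 1.44 CPM. The log2 fold change was 2.56 in KO mice (SE 0.87, edgeR adjusted p = 0.0461), which passed, and 2.04 in control mice (SE 0.87, adjusted p = 0.104), which did not, although DESeq2 called it (adjusted p = 0.0418), as did limma-voom. The call in KO mice was lost without ileal KO replicate 2 (adjusted p = 0.113) or colonic KO replicate 2 (adjusted p = 0.108), and that in control mice was gained without ileal control replicate 2 (log2 fold change 3.10), ileal KO replicate 1 or ileal KO replicate 3. Uchl1 was at 7.12, 8.11 and 18.1 CPM in the colonic control and at 12.9, 12.3 and 11.2 CPM in the colonic KO libraries. Colonic control replicate 3 was the highest of all, and the lowest colonic value was close to the highest ileal one of 6.55 CPM.

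In colon Vip was at 19.1, 25.4 and 15 CPM in control and at 15, 22.3 and 25.4 CPM in KO mice. The ileal maximum was 11.0 CPM. With all 12 libraries neither Vip nor Uchl1 passed edgeR's test, with log2 fold changes for Vip of 1.55 in control (SE 1.0, adjusted p = 0.276) and 2.22 in KO mice (SE 1.02, adjusted p = 0.127). Without the 2 low-muscle libraries the estimates of Vip were smaller and their errors smaller still, at 0.94 in control (SE 0.26, adjusted p = 0.0147) and 1.69 in KO mice (SE 0.26, adjusted p = 0.000468). For Uchl1 the corresponding values were 0.79 (SE 0.34, adjusted p = 0.0976) and 1.27 (SE 0.35, adjusted p = 0.0140).

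The glial genes overlapped between the tissues. Sox10 was at 0.563, 1.92 and 2.35 CPM in the colonic control and at 1.60, 1.66 and 3.11 CPM in the colonic KO libraries. Colonic control replicate 1 lay below 3 ileal values and the other 5 colonic libraries above all of them. The log2 fold change in KO mice was 2.57 (SE 0.98, edgeR adjusted p = 0.0707). That call was lost when any 1 of 5 libraries was left out, with adjusted p of 0.130 without ileal KO replicate 1, 0.173 without ileal KO replicate 2, and 0.106, 0.114 and 0.178 without colonic KO replicates 1, 2 and 3. S100b was at 1.28, 2.59 and 1.69 CPM and at 2.17, 2.38 and 1.83 CPM in colon, so that only control replicate 1 fell within the ileal range. Its log2 fold changes were 1.12 in control (SE 0.71, adjusted p = 0.271) and 1.43 in KO mice (SE 0.71, adjusted p = 0.153).

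Kit was at 26.5, 34.1 and 28.1 CPM in the colonic control and at 38.8, 36.3 and 36.3 CPM in the colonic KO libraries. All 6 were above the ileal libraries, the low-muscle pair included. Its log2 fold change was 0.90 in control (SE 0.27, edgeR adjusted p = 0.0274) and 1.33 in KO mice (SE 0.27, adjusted p = 0.00355). Ret, at 2.46, 4.46 and 6.64 CPM and at 5.14, 5.96 and 6.18 CPM, was the only member with no colonic library above the ileal maximum of 7.05 CPM. Its log2 fold changes were -0.47 in control mice (SE 0.31, adjusted p = 0.289) and -0.000620 in KO mice (SE 0.31, adjusted p = 0.999). Without colonic control replicate 3, Ret was lower in the colon of control mice by 0.88 on the log2 scale (adjusted p = 0.0654).

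**Figure D3:**
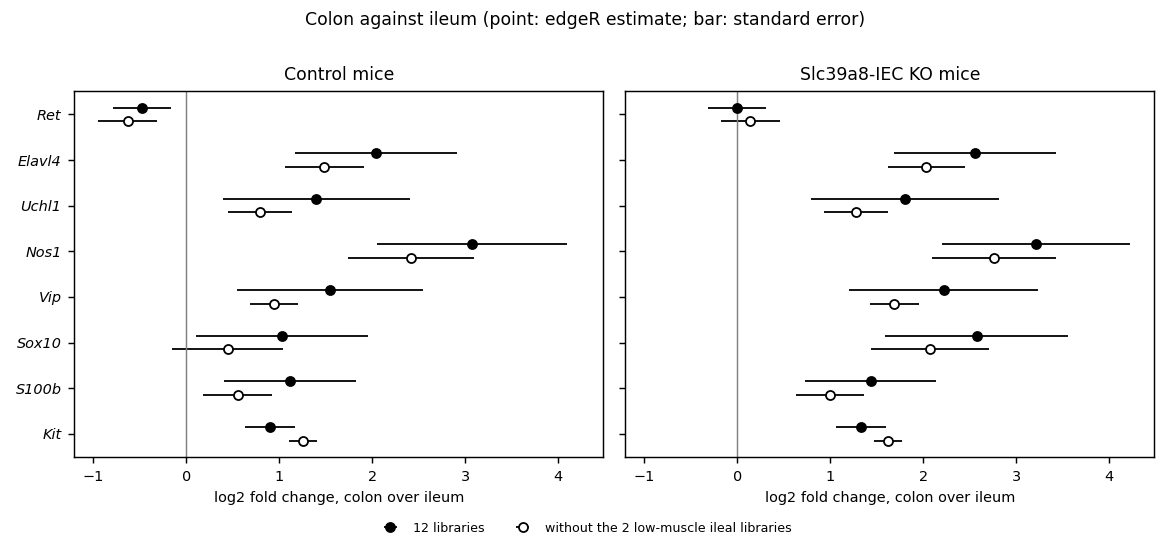
The horizontal axis gives the log2 fold change of colon over ileum for each of the 8 genes, control mice on the left and Slc39a8-IEC KO mice on the right, with bars of 1 standard error derived from edgeR's F statistic. Filled points use 12 libraries and open points leave out the 2 low-muscle ileal libraries, which moves Nos1 in control mice from 3.08 to 2.42 and Kit from 0.90 to 1.25.

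In control mice 2 of the 8 genes were called, both higher in colon, where 35.9% of all genes were called and 16.2% were called higher. In KO mice 4 were called, all higher in colon, where 37.1% of all genes were called and 17.1% were called higher. Without the low-muscle libraries the counts were 5 (Elavl4, Uchl1, Nos1, Vip and Kit) in control mice, where 42.0% of all genes were called and 19.9% were called higher, and 7 (all but Ret) in KO mice, where 43.2% and 21.5% were. Each of these members was higher in colon. A two-sided exact permutation test over all 12 libraries, with the tissues exchanged within each genotype, gave p = 0.005, the smallest that its 400 arrangements allow, for Elavl4, Uchl1, Nos1, Vip and Kit. This value follows from every colonic library of these genes lying above every ileal one, so it adds nothing to that order. Of all genes tested, 13.4% showed the order. The same exact test gave p = 0.01 for S100b, 0.03 for Sox10 and 0.27 for Ret. It is not stated if 1 mouse gave both tissues, and all these tests take the libraries as independent.

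The tissues also differed in muscle and epithelium, and the part of this in the tissue differences was not tested. The summed level of 5 epithelial genes was 15578 to 20273 CPM in ileum and 7794 to 9024 CPM in colon. Of the 9 smooth muscle genes, 0 were called between the tissues in either genotype with 12 libraries, and their median log2 fold change was 0.73 in control and 1.0 in KO mice. Without the low-muscle pair this median was 0.14 and 0.54, where that of the 8 genes was 0.87 and 1.65. In that setting 3 of the 9 smooth muscle genes were called higher in the colon of control mice and 5 in that of KO mice, with 0 called lower. Of all genes, 19.9% and 21.5% were called higher there.

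Of 12 other transmitter and transmitter-enzyme genes tested, 4 were called higher in the colon of control mice (Ache, Penk, Slc18a3 and Grp), where 16.2% of all genes were, and 7 in that of KO mice, where 17.1% were. None of the 12 was called lower in either genotype with 12 libraries. Without the low-muscle pair 7 were called higher and 1 lower in the colon of control mice, and 9 higher and 0 lower in that of KO mice. Of all genes, 19.9% and 21.5% were called higher in that setting. Grp, gastrin-releasing peptide, was at 4.51 to 9.02 CPM in colon and at 0 to 1.0 CPM in ileum, with log2 fold changes of 3.54 in control (SE 0.91, edgeR adjusted p = 0.0134) and 4.39 in KO mice (SE 0.94, adjusted p = 0.00489). Penk was at 6.30 to 12.4 CPM in colon and at 0.0425 to 2.31 CPM in ileum. Tac1 went another way without passing the test with 12 libraries. It was at 14.6 to 20.1 CPM in colon. In the 4 ileal libraries outside the low-muscle pair it was at 33.5 and 152 CPM in control and at 18.1 and 32.9 CPM in KO mice. Of the cytoskeletal and RNA-binding genes 2 of 9 were called higher in control mice, Nefm and Map2, and 4 in KO mice, where Tubb3 and Prph were added. Snap25, a protein of vesicle fusion, was the only 1 of 10 synaptic genes called in control mice (log2 fold change 1.51, SE 0.49, adjusted p = 0.0401), and 6 were called in KO mice.

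The glial and pacemaker lists, the partners of Ret and the receptors gave the calls below. Of all genes, 16.2% were called higher in the colon of control mice and 17.1% in that of KO mice. Called lower were 3251 of 16558 genes in control and 3312 in KO mice. Of 9 glial genes tested 0 were higher and Entpd2 was lower in the colon of control mice, and 3 were higher in that of KO mice, among them Gfap and Cdh19, with Gfra3 lower. Of 6 genes of the pacemaker list 2 were called higher in the colon of control mice, Thbs4 (log2 fold change 2.82, SE 0.70, edgeR adjusted p = 0.0112) and Elovl6 (0.37, SE 0.15, adjusted p = 0.0965), and 1, Thbs4, in that of KO mice. Elovl6, unlike Thbs4 and Ano1, was not low in the low-muscle ileal libraries (119% of the mean of the other 4). Ano1 was called in neither, at 14.7 to 27.0 CPM in colon. Among the partners of Ret, Gdnf and Artn were higher in the colon of control mice, with log2 fold changes of 2.47 (SE 0.72, adjusted p = 0.0249) and 1.99 (SE 0.68, adjusted p = 0.0483). The endothelin gene Edn3 was lower there by 3.74 on the log2 scale (SE 0.61, adjusted p = 0.000872), with 3.99 to 16.1 CPM in colon and 44.8 to 188 CPM in ileum. Of the 10 genes of the receptor list, Vipr2, a receptor of vasoactive intestinal peptide, was called higher in both genotypes, at 3.72 to 6.33 CPM in colon and at most 1.5 CPM in ileum. Without the low-muscle pair, 2 of these 10 were called higher and 1 lower in control mice, and 3 higher and 1 lower in KO mice. In that setting 19.9% and 21.5% of all genes were called higher.

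Between Slc39a8-IEC KO and control mice, none of the 8 genes was called, over both tissues or in either tissue. With edgeR 0.0% of all genes tested were called in each comparison. The targeted gene Slc39a8 was thus not called either, although it was lower in every KO than in every control library of its tissue. Over both tissues DESeq2 called 4 of all genes, limma-voom 1, and edgeR without the low-muscle libraries 5. In ileum the numbers were 2, 1 and 3, and in colon 0, 0 and 0. In edgeR, 0 of the 8 reached an unadjusted p under 0.05, where 3.87% of all genes did over both tissues, 1.52% in ileum and 2.33% in colon. DESeq2 and limma-voom called 0 of the 8 as well. Over both tissues the log2 fold changes of KO over control lay between -0.27 (Sox10, SE 0.67) and 0.19 (Elavl4, SE 0.57). The values were 0.11 for Ret (SE 0.22), -0.07 for Uchl1 (SE 0.66), 0.08 for Nos1 (SE 0.64), -0.24 for Vip (SE 0.67), 0.05 for S100b (SE 0.47) and 0.11 for Kit (SE 0.19). Each estimate was smaller than its standard error, so differences of this size were not detectable with these libraries.

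In ileum the groups overlapped for all 8 genes, where 3.70% of all genes did not overlap. The log2 fold changes were below 0 for 7 genes, from -1.15 for Sox10 (SE 1.01) to -0.10 for Elavl4 (SE 0.90), and the value was 0.00139 for Nos1 (SE 0.81). These directions were not stable, since limma-voom gave values above 0 for Uchl1, Vip and S100b. Without the low-muscle libraries Vip had the smallest unadjusted p, with 6.06 and 7.01 CPM in KO against 9.44 and 11.0 CPM in control mice and a log2 fold change of -0.66 (SE 0.28, unadjusted p = 0.0397, edgeR adjusted p = 0.952).

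In colon all 8 estimates were above 0, from 0.07 for Vip (SE 0.96) to 0.41 for Elavl4 (SE 0.80), but those of Uchl1, Nos1, Vip, Sox10 and S100b fell below 0 when 1 or another colonic library was left out. For Kit the KO libraries, at 36.3 to 38.8 CPM, were above the control libraries, at 26.5 to 34.1 CPM. The log2 fold change was 0.33 (SE 0.26, edgeR adjusted p = 1.0), and the two-sided exact permutation test gave p = 0.1, the smallest that 3 libraries against 3 allow. Of all genes tested, 12.8% did not overlap between the genotypes in colon, and 6.98% were higher in KO mice in that way. Without the low-muscle libraries, which are ileal, the estimate for Kit in colon was 0.34 with a smaller error (SE 0.13, unadjusted p = 0.0196, adjusted p = 0.848). The other 7 genes overlapped. The difference between the tissues in the effect of genotype was above 0 for 8 of 8 genes in edgeR but below 0 for Uchl1, Nos1, Vip and S100b in limma-voom. The largest in edgeR was that of Sox10, at 1.54 (SE 1.34, edgeR adjusted p = 1.0). None of the 8 differences was called, where 0.0% of all genes were.

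**Figure D4:**
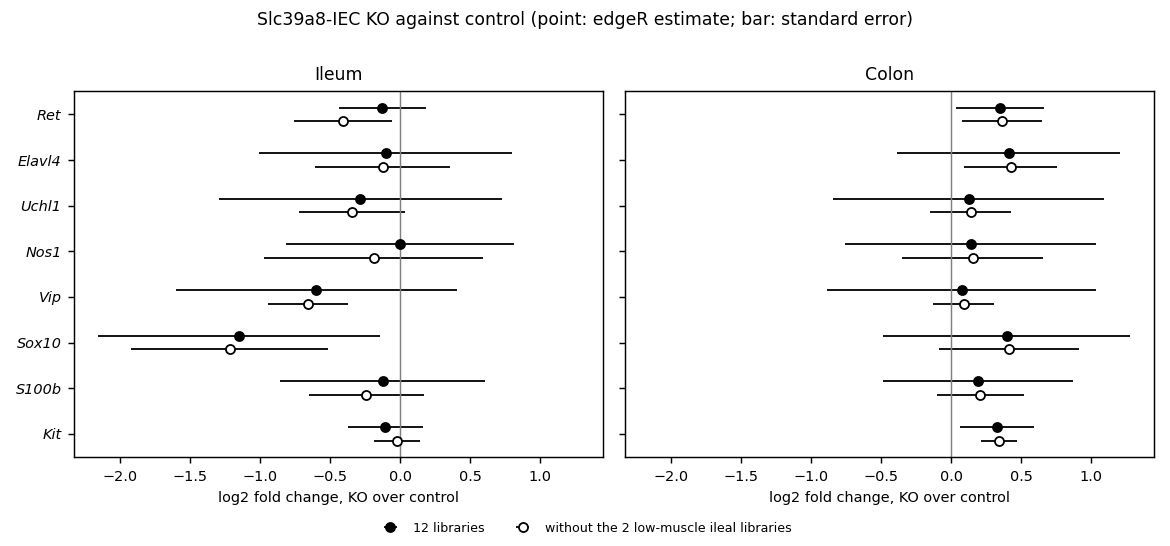
The horizontal axis gives the log2 fold change of Slc39a8-IEC KO over control for each of the 8 genes, ileum on the left and colon on the right, with bars of 1 standard error derived from edgeR's F statistic. Filled points use 12 libraries and open points leave out the 2 low-muscle ileal libraries, and the filled points lie between -1.15 (Sox10, ileum) and 0.41 (Elavl4, colon).

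None of the other neuronal, glial, pacemaker and receptor genes was called between genotypes. The median log2 fold change in ileum was -0.47 for the neuronal cytoskeleton and RNA-binding genes, -0.40 for the transmitter genes and -0.17 for the glial genes, beside -0.36 for smooth muscle and -0.00194 for all genes tested. In colon these medians were 0.24, 0.17 and 0.09, beside -0.06 for smooth muscle and 0.00500 for all genes. Summed smooth muscle expression was 1956 and 2213 CPM in the 2 ileal KO libraries outside the low-muscle pair and 2689 and 2838 CPM in the 2 control libraries, and its part in the lower ileal medians was not tested.

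Within the 6 colonic libraries the neuronal genes did not keep 1 common order. Colonic control replicate 1 was the lowest of the 6 for Ret, Elavl4, Uchl1, Nos1, Sox10, S100b and Kit but not for Vip. Control replicate 3 was the highest for Ret, Uchl1 and Nos1, yet its Vip level of 15 CPM was, with that of KO replicate 1, the lowest. Over these 6 libraries, Pearson's r of log2 CPM was 0.96 between Ret and Nos1, 0.92 between Ret and Elavl4 and 0.91 between Ret and Sox10. It was -0.56 between Vip and Uchl1, -0.25 between Vip and Nos1 and -0.04 between Vip and Ret. These values describe 6 libraries that share their depth and tissue makeup within each pair of genes, and carry no test. Over all 12 libraries, r between Vip and Uchl1 was 0.97 and that between Vip and S100b 0.98, so the order within colon differs from the division among the ileal libraries that dominates the 12. The ratio of Nos1 to Vip per kilobase of exon ran from 0.0286 in colonic control replicate 1 to 0.265 in colonic control replicate 3 and from 0.0873 to 0.157 in the colonic KO libraries. The smooth muscle gene Myh11 was at 417, 967 and 591 CPM in colonic control replicates 1 to 3, so its lowest library was the same and its highest another.

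Compared per length, in CPM per kilobase of exon, Uchl1 had the highest mean level in the colonic control libraries at 6.81 ± 3.73 (SD, n = 3), followed by Vip at 5.84 ± 1.54 and Kit at 3.32 ± 0.449. S100b was at 1.25 ± 0.451. Ret at 0.668 ± 0.309, Nos1 at 0.598 ± 0.517, Elavl4 at 0.548 ± 0.151 and Sox10 at 0.528 ± 0.306 came last and differed from each other by less than their spread, as did Uchl1 from Vip. In the 4 ileal libraries outside the low-muscle pair the means were 3.49 for Uchl1, 2.46 for Vip, 1.37 for Kit, 0.900 for Ret and 0.778 for S100b, with Sox10 at 0.276, Elavl4 at 0.185 and Nos1 at 0.104. Ret thus stood above Nos1 in the ileum by more than the spread of either, whereas in the colonic control libraries their values overlapped. In the colonic KO libraries Ret, at 0.759 to 0.914, again lay above Nos1, at 0.571 to 0.715.

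The genes most alike to each of the 8 over the 12 libraries, by Pearson's r of log2 CPM among all genes tested, are given as a description without a test, since all share the division by muscle and tissue. For Uchl1 they were Stmn2, Sncg and Chl1 (r = 0.99 for each) and for Elavl4 Cadm3, Cpxm2 and Dlg2 (r = 0.98). For Nos1 they were Syngr1 (r = 0.99), Slc5a7, the choline transporter of cholinergic neurons, and Vat1l (r = 0.98). Vip was most alike to Cavin3, Postn and Ctxn3 (r = 1.0), of which Postn, the matrix protein periostin, was at 1.70 and 1.97 CPM in the low-muscle libraries, 48.3 to 72.0 CPM in the other 4 ileal libraries and 104 to 197 CPM in colon. Sox10 was most alike to Astn1, Celf4 and Tuba1a (r = 0.97) and S100b to Scn7a, Gnai1 and Tmem200a (r = 0.99).

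The nearest genes of Ret and Kit are given apart. Ret reached lower values of r, 0.89 with Usp11 and 0.87 with Dmxl2 and Fam189a1. Kit was most alike to Arsb, A4gnt and Gne (r = 0.98), of which A4gnt encodes a glycosyltransferase of gland mucins and Gne the first enzyme of sialic acid synthesis. A4gnt was at 4.41 and 5.27 CPM in the low-muscle libraries, 0.555 to 1.60 CPM in the other 4 ileal libraries and 9.23 to 15.9 CPM in colon, the same order of the 3 sets of libraries as for Kit.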

How the data were processed

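The authors aligned reads with STAR to mm10 (submitters' processing notes) and deposited 1 table of expected counts, not normalized. The study's Reporting Summary names UMI-tools for removing duplicates and featureCounts for the counts file. featureCounts as usually run gives whole numbers, so the tool behind these expected counts is not certain. Priming of the cDNA was by oligo-dT. Of 53807 lines, 92 spike-in sequences (0 counts) were left out, and 53620 of 53715 genes had a symbol.

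Expected counts were rounded. edgeR 4.0.16 in R 4.3.3 (filterByExpr, TMM factors, glmQLFit, glmQLFTest) tested 16558 genes, with Benjamini-Hochberg adjustment over all of them and a threshold of 0.1. The standard errors given with edgeR values were derived as the absolute log2 fold change over the square root of the F statistic. Genotype over both tissues had tissue as an additive term. The other comparisons came from 1 model of the 4 groups. TMM factors scaled the library sizes for CPM, and log2 CPM had a prior count of 2. Exact permutation tests used the mean of log2(CPM + 0.5). Poisson intervals are exact at 95%. Alternatives were DESeq2 1.42.0, limma-voom (limma 3.58.1), other scaling factors, other filters, the replicate block, and libraries left out.

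The 8 genes, the 16 lists (126 genes) and the low-muscle division were chosen with earlier results of these data known. The rule for named genes took all 8, from each list the genes called (at most 5 a direction) or else those with the highest mean CPM, and the 3 genes most alike to each of the 8. Other list genes were named after their values were seen. The fits were tested on simulated data. Replicates are separate mice per the study's methods.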

Additional observations from a re-analysis of the deposited data

How the results depend on the processing

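No genotype comparison called any of the 8 genes under any alternative. Between tissues, the number called in control mice was 2 and became 3 with DESeq2, library size alone or no filter (Elavl4 added), 4 with limma-voom, 5 without the low-muscle libraries and 1 (Kit) with the replicate block, where Nos1 was at 2.75 (adjusted p = 0.113). It was 2 to 3 when 1 library was left out. In KO mice it was 4, became 5 with limma-voom or no filter (Vip added), 7 without the low-muscle libraries, kept 4 with the replicate block, and was 2 to 7 when 1 library was left out (7 without ileal control replicate 3, 2 without ileal or colonic KO replicate 2). With library size as the only scaling it was 6 in KO mice. That scaling moved the median log2 fold change of all genes from 0.02 to 0.24 in control and from 0.01 to 0.29 in KO mice, and the share of called genes that were higher in colon from 45.3% to 66.4% and from 46.1% to 70.8%. Deviations of same-numbered libraries correlated at -0.69 to 0.40 over 18 pairs, 5 of them over 0.1. Only ileum and colon of 1 genotype could come from 1 mouse. For these the values were -0.0534, 0.165 and -0.0798 in control and 0.192, 0.0512 and 0.251 in KO mice. They are too few to decide if the replicate numbers pair the libraries. The block changed no other call.

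Values that changed sign were not called, and the cause was not tested. With limma-voom, genotype over both tissues gave 0.29 for Uchl1, 0.12 for Vip and 0.16 for Sox10, genotype in ileum 0.47 for Uchl1, 0.27 for Vip and 0.29 for S100b, and the difference between tissues -0.23 for Uchl1, -0.69 for Nos1, -0.19 for Vip and -0.0654 for S100b. Library size alone gave 0.0212 for Uchl1 over both tissues. Nos1 in ileum was -0.0551 with DESeq2, -0.00202 with RLE factors, -0.000641 with a minimum of 10 counts in 3 libraries, -0.29 with the replicate block and -0.19 without the low-muscle libraries. Ret between tissues in KO mice was 0.00952 with DESeq2, 0.0254 with limma-voom, 0.27 with library size alone, 0.00992 with RLE factors, 0.0282 without a filter, 0.00316 with the minimum of 10 counts and 0.14 without the low-muscle libraries.

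Leaving out 1 library gave these ranges where a sign changed. Over both tissues they were -0.0456 to 0.25 for Ret, -0.0699 to 0.59 for Elavl4, -0.29 to 0.19 for Uchl1, -0.16 to 0.54 for Nos1, -0.46 to 0.0224 for Vip, -0.57 to 0.0701 for Sox10 and -0.15 to 0.25 for S100b. In ileum they were -0.97 to 0.95 for Elavl4, -0.87 to 0.27 for Uchl1, -0.65 to 0.91 for Nos1, -0.66 to 0.32 for S100b and -0.39 to 0.28 for Kit. In colon they were -0.11 to 0.69 for Uchl1, -0.31 to 1.09 for Nos1, -0.0766 to 0.29 for Vip, -0.00511 to 0.79 for Sox10 and -0.0125 to 0.51 for S100b. For the difference between tissues they were -0.54 to 1.38 for Elavl4, -0.14 to 1.01 for Uchl1, -0.77 to 1.11 for Nos1 and -0.13 to 0.87 for S100b. For Ret between tissues in KO mice the range was -0.0777 to 0.13. Elavl4, Nos1, Sox10 and S100b had 0 to 30 counts in each ileal library, which limits their precision.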

Other observations

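Genes of other cells differed between the tissues as well. Of 9 enteroendocrine genes, 3 were called higher and 3 lower in the colon of control mice. Of all 16558 genes, 2689 (16.2%) were called higher and 3251 lower in this comparison. Chga, chromogranin A of endocrine granules, was at 134 to 232 CPM in colon and at 21.9 to 60.4 CPM in ileum (log2 fold change in control mice 2.25, SE 0.42, edgeR adjusted p = 0.00217), and Tph1 was at 32.9 to 60.1 CPM and at 2.33 to 14.9 CPM. Sct, the hormone secretin, was lower in colon by 0.56 on the log2 scale in control mice (SE 0.16, adjusted p = 0.0248). In ileum, Chga and Tph1 were highest in the 2 low-muscle libraries, as was Kit, whereas Pyy was lowest there. The mast cell proteases Mcpt1 and Mcpt2 were lower in colon in both genotypes, with at most 3 counts in any colonic library, so no fold change is given. All 5 epithelial genes were called lower in colon in both genotypes, as was Cd3e of T cells, where 3251 of 16558 genes were in control and 3312 in KO mice.

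The muscarinic receptors differed from each other in the low-muscle libraries. Chrm3 was at 179% (150 to 211%) of the mean of the other 4 ileal libraries and Chrm2 at 3.0% (1.68 to 4.95%). Tacr2, a tachykinin receptor, was at 4.03% (0.488 to 14.6%). In colon Chrm2 was at 2.51 to 7.46 CPM and in the other 4 ileal libraries at 9.15 to 14.0 CPM, the opposite order to that of Vipr2.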
